A study of Mus musculus with 18 samples.

Results

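The regions described here are sites on thymocyte RNA that carried chimeric reads of both the miR-181 family and miR-142a-3p. A microRNA (miRNA) is a short RNA that guides an Argonaute protein to RNAs that pair with bases 2 to 8 of the miRNA, its seed, and the bound complex usually lowers the stability and translation of the target. Several miRNAs can bind side by side on 1 RNA. The miR-181 family is abundant in developing T cells, where it is known for tuning T cell receptor signalling, and miR-142a-3p is among the most abundant miRNAs of blood cells in general.

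Thymocytes came from mice aged 6 weeks and were profiled by miR-eCLIP. UV light crosslinks RNA to Ago2, which is then immunoprecipitated (IP), and each miRNA is joined by a ligase to its bound target fragment. Each chimeric read therefore names a miRNA and gives a position on its target. Wild-type mice were C57BL/6, and the knockout carried the allele B6.Mirc14tm1.1Ankr, titled miR181a/b-1-KO. The labels name no cell type to which the deletion is limited. Each genotype had 3 Ago2 IP libraries and 3 libraries further enriched for miR-181-5p, from unsorted total thymocytes. The labels do not say that replicates came from separate mice, so the p-values below measure the spread between libraries, which may be technical.

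Reads of the 3 wild-type Ago2 IP libraries were pooled, positions on 1 strand lying 20 nt or less apart were chained into clusters, and a cluster was kept where it held 3 or more reads of miR-181a/b/c/d-5p and 3 or more of miR-142a-3p and did not overlap a miRNA hairpin. This left 273 shared sites of 157494 clusters. Clusters with 6 or more reads of one miRNA and 0 of the other served for comparison: 568 held miR-181 alone and 368 held miR-142a-3p alone. Since wild-type reads chose all of these sets, the wild-type counts at them are a description. In 99 of the 273 sites the rarer miRNA had exactly 3 reads, and a further 258 clusters lay just outside, with 3 or more reads of one miRNA and exactly 2 of the other.

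The mature sequences show how little the miRNAs of the pair resemble each other. They are given 5′ to 3′ from RefSeq (GRCm38.p6), with the seed in capitals:
miR-181a-5p: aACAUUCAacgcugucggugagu
miR-181b-5p: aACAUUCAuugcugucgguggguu
miR-181c-5p: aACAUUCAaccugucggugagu
miR-181d-5p: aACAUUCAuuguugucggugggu
miR-142a-3p: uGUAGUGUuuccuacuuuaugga
The 4 members of the miR-181 family shared 1 seed, so a site for one is a candidate site for all of them. The seeds of miR-181 and miR-142a-3p had the same base at 2 of 7 positions. A perfect seed match is TGAATGT for miR-181 and ACACTAC for miR-142a-3p. No genome sequence was used here, so seed matches within the sites were not analysed, apart from the site in a promoter window given further on.

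Total depth was 117849, 69074 and 43983 chimeric reads for Ago2 IP replicates 1 to 3 of wild type, and 60789, 67639 and 52100 for those of the knockout. Reads of miR-142a-3p numbered 33095, 19298 and 11756 in wild type and 24257, 27305 and 20001 in the knockout. Genotype labels were checked at the deleted hairpins: Ago2 IP reads on Mir181a-1 numbered 545, 379 and 363 for wild type and 0 for all 3 replicates of the knockout. The labelled cell type was checked on chimeric reads within marker genes. All 7 thymocyte markers carried Ago2 IP reads in wild type, though Ptcra had only 2 there and 0 in the knockout. The 7 together had 1698 reads for wild type and 901 for the knockout, of which Rag1 gave 670 and 434. Against these stood 6 and 0 for 4 B cell markers, 5 and 5 for 4 myeloid markers and 1 and 0 for 3 stromal and epithelial markers. Among the markers of other cells, Ms4a1, Cd68, Epcam and Col1a1 were at 0 in both genotypes. Enriched knockout replicates 2 and 3 did not differ beyond sampling noise in a chi-square test of reads per cluster (p = 0.144, against 0.0130 or less for each other pair of a group). That test had only 126 clusters, and its chi-square per degree of freedom, 1.13, was like that of knockout Ago2 IP replicates 1 and 2 (1.12). The enriched knockout libraries are given one by one below and enter no mean or test.

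Of the 273 shared sites, 234 (85.7%) fell in the span of a protein-coding gene, against 96.8% of miR-181-only and 92.7% of miR-142a-3p-only clusters. Another 17 fell in a long non-coding RNA and 8 in Rn18s-rs5, a ribosomal RNA pseudogene whose reads cannot be told apart from those of 18S ribosomal RNA. A further 8 had no gene, and 12 of the 273 lay in the mitochondrial genome. The gene table has spans without exons, so coding and untranslated parts were not told apart. For 195 sites the strand of the gene was known from RefSeq promoters, and the reads lay on the strand of the gene in all 195.

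The sites were wider than clusters of a single miRNA. Their median width was 79 nt (range 1 to 335), against 34 nt for miR-181-only and 35 nt for miR-142a-3p-only clusters. Among clusters with 6 to 10 reads of the pair, the medians were 51, 30 and 31 nt. The 273 sites held 4664 miR-181 reads, 4006 miR-142a-3p reads and 3543 reads of 129 other miRNAs. These others made up 29.01% of reads at the shared sites, 5.20% at the miR-181-only and 13.6% at the miR-142a-3p-only clusters. In the whole wild-type Ago2 IP libraries they made up 41.3% ± 0.424 (SD, n = 3 libraries). The comparison clusters had to lack the partner miRNA, so the rule itself disfavours wide clusters with many miRNAs among them. Most frequent were miR-16-5p with 404 reads at 85 sites, let-7a-5p with 342 reads at 69 sites and miR-17-5p with 264 reads at 70 sites. Without the mitochondrial and ribosomal sites, other miRNAs made up 25.1% ± 0.813 (SD, n = 3 libraries) of reads at the 253 that remained.

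The balance of the pair varied widely. The median site had 6 reads of each miRNA, and miR-181 made up a median of 50% of the pair, with a range from 3.35% at ND4 to 98.2% at Cd4. In this IP miR-181 made up 30.1%, 30.9% and 32.3% of all chimeric reads of a library, and miR-142a-3p 28.1%, 27.9% and 26.7%, so the libraries as a whole held the pair in nearly equal parts.

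**Figure D1:**
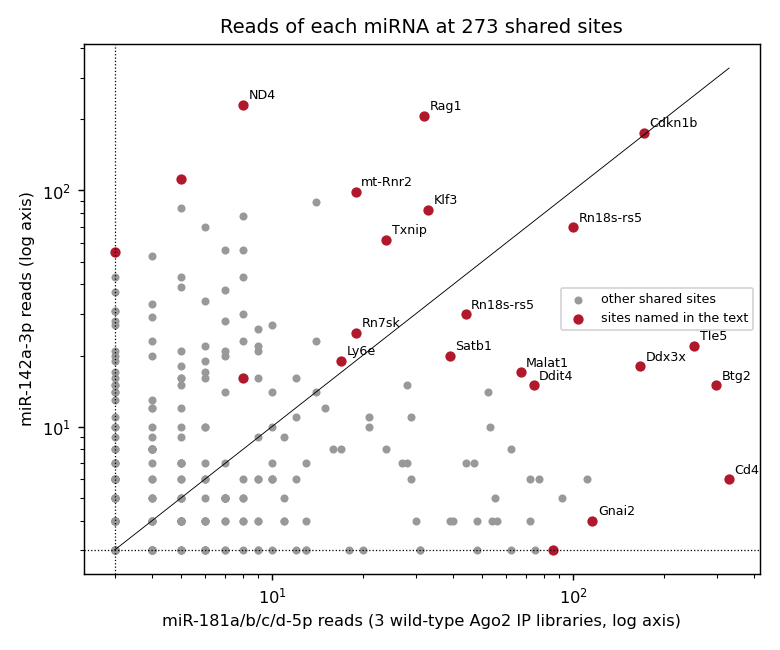
Reads of miR-181 (x axis) and miR-142a-3p (y axis) at each of the 273 shared sites, summed over 3 wild-type Ago2 IP libraries, both axes logarithmic. Dotted lines mark the minimum of 3 reads, and the diagonal marks equal reads. Red points are the 22 sites picked by read count, miR-181 share, call or distance. Other sites named in the text are among the grey points. Cdkn1b (172 and 176 reads) lies close to the diagonal and has the largest count of the rarer miRNA, and most sites sit near the minimum.

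The most balanced of the deeply covered sites lay in Cdkn1b, which encodes p27, an inhibitor of cyclin-dependent kinases that holds cells out of division (chr6:134924234-134924432, plus strand). The 3 wild-type replicates gave 79, 57 and 36 reads of miR-181 (Ago2 IP), and 91, 47 and 38 of miR-142a-3p. The enriched wild-type libraries gave 447, 393 and 296 miR-181 reads there. In the Ago2 IP both miRNAs were therefore present in every wild-type library, in nearly equal numbers, and the other miRNAs together had 53 reads. Counted once per library and position, the miR-142a-3p reads alone were 40, 29 and 30, so this balance includes repeated reads.

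Klf3 came next among protein-coding genes by the count of its rarer miRNA. It encodes a transcriptional repressor of the Krüppel-like family (chr5:64829227-64829419, plus strand), and its reads were 18, 5 and 10 for miR-181 and 41, 23 and 19 for miR-142a-3p. Rag1, which encodes a subunit of the recombinase that cuts antigen receptor genes, had 19, 7 and 6 reads of miR-181 and 102, 63 and 42 of miR-142a-3p at its main site (chr2:101640163-101640437, minus strand). Txnip, whose product restrains glucose uptake, had 14, 2 and 8 against 29, 22 and 11 (chr3:96561412-96561709, plus strand). At these 3 sites miR-142a-3p was the more frequent partner in each wild-type library.

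Elsewhere miR-181 prevailed. Tle5, a short member of the Groucho family of corepressors, had 141, 66 and 46 reads of miR-181 and 14, 5 and 3 of miR-142a-3p (chr10:81565869-81565914, plus strand). Ddx3x, an RNA helicase gene, had 89, 45 and 33 against 11, 3 and 4 (chrX:13293206-13293401, plus strand). Btg2, an antiproliferative gene whose product recruits the deadenylation machinery, had 145, 98 and 56 against 8, 4 and 3 (chr1:134076394-134076636, minus strand). In each of these, miR-181 outnumbered its partner in every library.

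Satb1, which encodes a chromatin organiser needed for T cell development, held 7 shared sites, more than any other protein-coding gene. The one with the most reads of its rarer miRNA had 17, 9 and 13 reads of miR-181 and 10, 6 and 4 of miR-142a-3p (chr17:51825802-51825887, minus strand). Ddit4, which encodes an inhibitor of mTORC1, had 23, 28 and 23 against 4, 5 and 6 (chr10:59949748-59950021, minus strand). Ly6e, a surface protein gene, had 9, 6 and 2 against 15, 2 and 2 (chr15:74959130-74959256, plus strand). The order of the miRNAs at Ly6e thus differed between libraries, and none of its 3 pairs of counts exceeds 15 reads.

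Among non-coding RNAs, Malat1, a nuclear long non-coding RNA, held 8 sites, and the one with the largest lesser count had 33, 18 and 16 reads of miR-181 and 5, 8 and 4 of miR-142a-3p (chr19:5798243-5798577, minus strand). Rn7sk, the small nuclear RNA that keeps the elongation factor P-TEFb inactive, had 13, 5 and 1 against 16, 8 and 1 (chr9:78175304-78175378, minus strand). Rn18s-rs5 had 50, 37 and 13 against 35, 22 and 13 at its main site (chr17:39847585-39847910, plus strand), where miR-25-3p had 116 reads and so exceeded both. A second Rn18s-rs5 site had 18, 19 and 7 against 8, 12 and 10 (chr17:39846804-39846899, plus strand). The ribosomal sites thus differed from Cdkn1b in holding more reads of other miRNAs than of the pair: 203 at the first and 131 at the second.

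Of the 12 mitochondrial sites, 10 had more miR-142a-3p than miR-181 reads, against 120 of the other 261. ND4, a subunit of respiratory complex I, had 3, 3 and 2 reads of miR-181 against 128, 63 and 40 of miR-142a-3p (chrM:11277-11490, plus strand). Many of the latter repeat a position: counted once per library and position they were 30, 22 and 17. ND1, of the same complex, had 3, 2 and 0 against 59, 25 and 28 (chrM:3436-3630, plus strand). The 16S ribosomal RNA gene mt-Rnr2 had 6, 9 and 4 against 50, 34 and 15 (chrM:1638-1834, plus strand). Actb, the cytoplasmic actin gene, was the nuclear gene with the lowest miR-181 share among sites with 30 or more reads of the pair, with 1, 1 and 1 against 32, 12 and 11 (chr5:142904070-142904237, minus strand).

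At the other end stood sites with few reads of miR-142a-3p. Cd4, the coreceptor of helper T cells, had 196, 90 and 44 reads of miR-181 and 4, 1 and 1 of miR-142a-3p (chr6:124866054-124866270, minus strand). Gnai2, an inhibitory G protein subunit, had 73, 20 and 23 against 2, 1 and 1 (chr9:107615612-107615684, minus strand). Mbnl1, a splicing regulator, had 36, 32 and 18 against 1, 1 and 1 (chr3:60626763-60626942, plus strand). In those 3 the second miRNA was present in every wild-type Ago2 IP library, at a count too low to rank the libraries.

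Many genes held more than 1 shared site. Of 188 gene names with a shared site, 37 had 2 or more, 51 also held a miR-181-only cluster, 39 a miR-142a-3p-only cluster, and 19 all 3 kinds. Hipk1, Rasgrp1, Baz2a, Themis, Rag1, Btg2 and Gm38396 had 4 shared sites each. So did Gm4258, a long non-coding RNA gene whose span (chr1:137898464-137963020) ends 3435 nt before the Mir181a-1 hairpin that the knockout lacks.

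Across lists of genes with roles in thymocytes, 22 of 137 genes held a shared site. RNA-binding proteins and the miRNA machinery had 7 of 18: Ago2, its partners Tnrc6a, Tnrc6b and Tnrc6c, the splicing regulator Mbnl1, the helicase Ddx5 and the mRNA-decay factor Zfp36l1. Reads of the pair (miR-181, then miR-142a-3p) were 21 and 10 at Ago2, 12 and 16 at Tnrc6a, 10 and 14 at Tnrc6b and 3 and 31 at Tnrc6c. In the same list, 5 genes held a miR-181-only and 5 a miR-142a-3p-only cluster.

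Of 29 T cell transcription factors, 5 held a shared site (Satb1, Tle5, Bcl11b, Tcf7 and Myb), against 10 with a miR-181-only and 3 with a miR-142a-3p-only cluster. Of 21 genes of thymocyte identity and the T cell receptor, 4 did (Cd4, Cd8a, Rag1 and Themis), against 5 and 4. Cd8a, which encodes a chain of the coreceptor of cytotoxic T cells, had 1 site led by each miRNA: 56 and 4 reads of miR-181 and miR-142a-3p at one, 6 and 70 at the other. Themis, a regulator of T cell receptor signals, showed the same contrast, with 54 and 4 reads at one site and 8 and 56 at another.

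The remaining lists held fewer. Antiproliferative and cell cycle genes had 2 of 14 (Btg2 and Cdkn1b), cytoskeleton and migration genes 2 of 17 (Actb and the chemokine receptor gene Ccr7), survival genes 1 of 8 (Xiap, an inhibitor of caspases) and cytokine signalling genes 1 of 15 (Tgfbr1, a receptor of TGF-β). The phosphatases and brakes of T cell receptor signals had 0 of 15, with 3 genes holding a miR-181-only and 2 a miR-142a-3p-only cluster. These are counts without a test.

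For each site the median position of the miR-142a-3p reads was set against that of the miR-181 reads, in the direction of the strand. The distance between them had a median of 17.5 nt, with an interquartile range of 8 to 33 nt and a maximum of 159 nt. It was 5 nt or less at 54 sites, 20 nt or less at 153 and over 50 nt at 27. Neither order prevailed: miR-142a-3p lay downstream at 121 sites, upstream at 143 and level with miR-181 at 9. At 144 sites at least 1 position carried reads of both. The joining distance bounds these values: with positions joined within 10 nt and the sites chosen again the median was 10.5 nt, and within 50 nt it was 36.2 nt, so its size is no measure of closeness.

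The distances were measured again in libraries that had no part in choosing the sites, with miR-181 positions from the enriched wild-type and miR-142a-3p positions from the knockout Ago2 IP libraries. Only reads within the bounds of the wild-type Ago2 IP clusters were counted. Both sets of distances were thus confined to the same intervals, which limits how far their sizes could differ. At the 165 sites with 3 or more such reads of each, the median distance was 17.5 nt, against 20 nt for the same 165 sites in the wild-type Ago2 IP. Pearson's r between both sets of signed distances was 0.681 and Spearman's rho 0.571, as a description over sites that share libraries. Of the 55 sites with over 20 nt in both sets, 47 kept the order of the miRNAs. The miR-142a-3p reads themselves moved by a median of 7 nt between the genotypes.

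**Figure D2:**
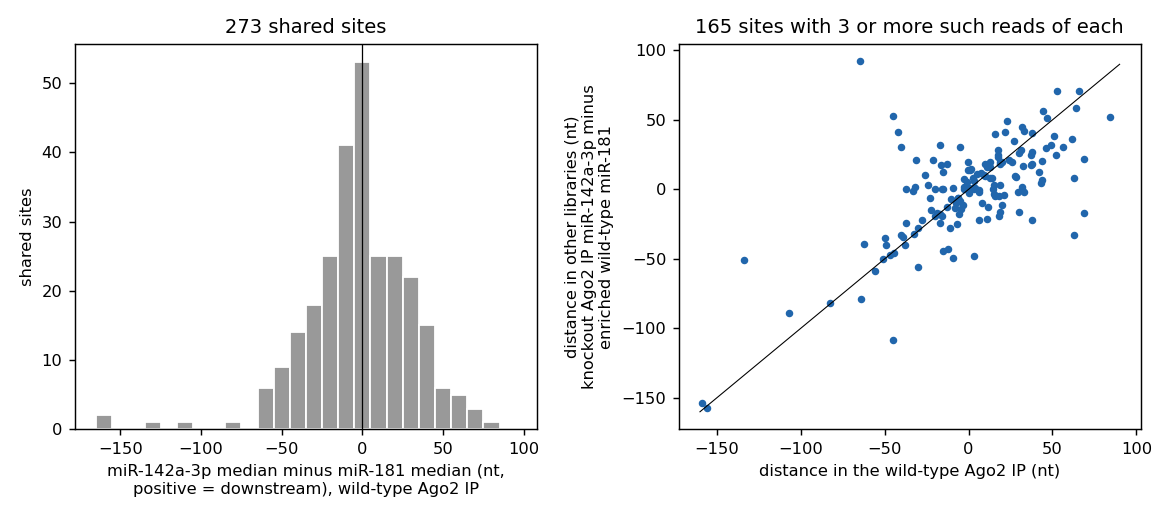
Left, number of the 273 shared sites by the distance in nt from the miR-181 median position to the miR-142a-3p median position, in bins of 10 nt. Right, that distance (x axis) against the one from enriched wild-type and knockout libraries (y axis) at 165 sites, with the line of equality. Distances centre near 0 with tails on both sides, and the far upstream sites of Txnip and mt-Rnr2 return at the same place.

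Single sites show distinct peaks. At Cdkn1b, 106 of 172 miR-181 reads fell in the window from nt 81 to 90 of the cluster, and 706 of 1136 did so in the enriched libraries. The largest window of miR-142a-3p there ran from nt 131 to 140, with 47 of 176 reads in wild type and 60 of 204 in the knockout. The miRNAs thus peaked in different windows of the same 199-nt cluster, each at the same place in libraries the rule did not use.

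At Klf3, miR-142a-3p peaked at nt 101 to 110 (37 of 83 reads) and miR-181 at nt 151 to 160 (7 of 33 reads, and 63 of 202 in the enriched libraries). At Txnip, miR-142a-3p peaked at nt 41 to 50 (21 of 62 reads) and miR-181 at nt 261 to 270 (5 of 24 reads, and 28 of 139 in the enriched libraries). The Txnip medians lay 159 nt apart, and 154 nt apart in the other libraries. At Rag1, miR-181 peaked at nt 71 to 80 (5 of 32 reads, and 38 of 193 in the enriched libraries). There miR-142a-3p had its highest window at nt 151 to 160 (33 of 207 reads), and in the knockout at nt 161 to 170 (32 of 184 reads). At all 3 of these sites the miRNAs peaked in separate windows.

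Tle5 was of the other kind. Its cluster was 46 nt wide, miR-181 and miR-142a-3p both peaked at nt 31 to 40 in the wild-type Ago2 IP, and the medians lay 1 nt apart (5 nt in the other libraries). Satb1 was similar in the wild-type Ago2 IP, with both peaks at nt 61 to 70 and medians 5.5 nt apart. In the other libraries its medians lay 17.5 nt apart. At a site without a named gene (chr6:3201445-3201478, plus strand), the median distance was 0 nt in the libraries not used for the choice, the smallest among sites with 10 or more reads of each miRNA there.

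**Figure D3:**
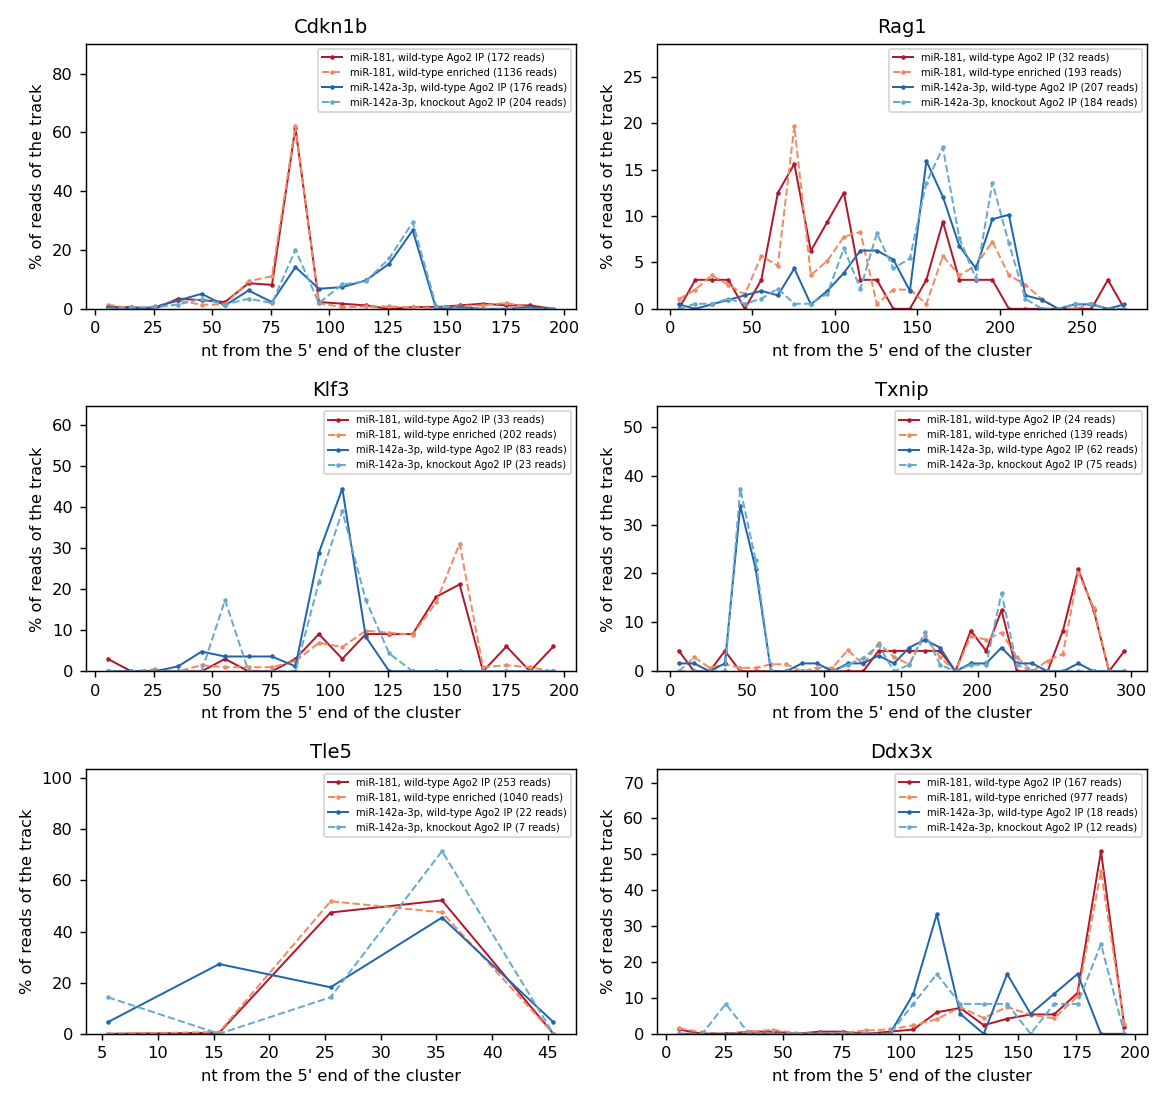
Reads of each miRNA along 6 shared sites in windows of 10 nt from the 5′ end of the cluster (x axis), as a percentage of the reads of that miRNA and group of libraries (y axis). Solid lines are the wild-type Ago2 IP libraries and dashed lines the libraries not used to choose the sites. In the wild-type Ago2 IP the miRNAs peak apart at Cdkn1b, Rag1, Klf3, Txnip and Ddx3x and overlap at Tle5, and at Ddx3x the 12 knockout reads have their highest window with miR-181.

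A single shared site fell in a promoter window, and it is shown because sequence was at hand there. It was 1 nt wide (chr19:53390856, minus strand, GRCm38.p6) in the RefSeq window of Smndc1, which encodes a splicing factor, and held 5 miR-181 and 7 miR-142a-3p reads. The surrounding 59 bases (chr19:53390826-53390884, minus strand), with the position of the reads in capitals, were
Smndc1 window: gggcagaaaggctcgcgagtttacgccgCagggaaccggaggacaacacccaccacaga
Neither TGAATGT nor ACACTAC occurred on either strand of the whole window of 300 bases, which says only that these letters are not in it. Of 32851 such windows, 1.63% held the first motif and 0.840% the second.

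The enriched libraries, which were not used to choose the sites, gave miR-181 reads at nearly every shared site. All 3 wild-type enriched libraries had such reads at 255 of 273 sites (93.4%), against 97.5% of miR-181-only and 10.1% of miR-142a-3p-only clusters. The median number of enriched miR-181 reads was 36, 43 and 1 per cluster in the same order. Summed over the shared sites, miR-181 reads numbered 19991, 16636 and 12572 in the enriched wild-type libraries and 821, 1194 and 451 in the enriched knockout libraries, where 194 sites (71.1%) carried some.

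The mix of miR-181 family members differed between both kinds of miR-181 cluster. Of reads of miR-181a and miR-181b, which differ outside the seed, miR-181b made up, by wild-type replicate of the Ago2 IP, 24.3%, 22.9% and 21.7% at shared sites and 17.1%, 18.1% and 16.3% at miR-181-only clusters. In the enriched libraries its share was 18.2%, 18.2% and 20.7% at shared sites against 10.3%, 12.4% and 14.1%. It was higher at the shared sites in each of the 6 libraries, and close to the share in all reads of these groups (22.8% ± 0.400 and 18.6% ± 1.53, SD, n = 3). Both shares come from the same libraries, and 3 pairs allow no exact p below 0.25, so no test is given. Without mitochondrial and ribosomal sites the shares were 22.4% ± 1.76 and 18.1% ± 1.44.

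In the knockout, the miR-181 reads of the shared sites were nearly gone and those of miR-142a-3p remained. At the 273 sites the Ago2 IP gave 2340, 1424 and 900 miR-181 reads in wild type and 54, 74 and 60 in the knockout, where 65 sites had any. The fall was not particular to these sites: whole libraries held 35510, 21354 and 14201 miR-181 reads in wild type and 803, 940 and 750 in the knockout. The sites held 6.53% ± 0.173 of these in wild type and 7.53% ± 0.702 in the knockout (SD, n = 3). Reads of miR-142a-3p at the 273 sites numbered 2079, 1172 and 755 in wild type and 1260, 1268 and 961 in the knockout. As a share of all miR-142a-3p reads of the library, these were 6.28%, 6.07% and 6.42% against 5.19%, 4.64% and 4.80%. The wild-type shares were all higher, but wild-type reads chose the sites, which favours that order. The miR-142a-3p-only clusters, chosen in the same libraries without miR-181, showed the same order, at 6.42% ± 0.254 and 4.99% ± 0.259.

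The sites were therefore chosen again from 2 wild-type libraries and read in the one left out, a procedure added after the first values were seen. At 90 sites chosen without replicate 1, that replicate had 3.28% of its miR-142a-3p reads and the knockout 2.87% ± 0.165 (SD, n = 3). At 151 sites chosen without replicate 2 the values were 3.48% and 3.38% ± 0.165, and at 193 sites chosen without replicate 3 they were 4.77% and 4.09% ± 0.155. On the log2 scale the knockout stood at -0.20, -0.04 and -0.22 against the library left out, where it had been at -0.36, -0.38 and -0.34 against the libraries that chose the sites. The same steps put miR-142a-3p-only clusters at 0.09, 0.12 and -0.00.

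A further comparison used clusters joined over all 6 Ago2 IP libraries with 6 or more miR-142a-3p reads in total, sorted by miR-181 reads in the enriched wild-type libraries. No miR-181 read of the Ago2 IP entered the sorting, but the libraries that sorted the clusters are wild-type, and an RNA more abundant in wild type could fall into the upper set more often. Of 1853 such clusters, 337 had 10 or more of these miR-181 reads, among them the clusters of 192 shared sites, and 691 had 0, with 1 shared site. For each library the miR-142a-3p reads of the first set were divided by those of the second. The log2 ratio was 0.56, 0.66 and 0.68 in wild type and 0.48, 0.45 and 0.45 in the knockout. All 3 knockout values lay below all 3 wild-type values, and the means (0.64 ± 0.07 and 0.46 ± 0.02, SD, n = 3) differed by -0.18, a ratio of 0.884. The exact two-sided permutation test gave p = 0.1, the smallest that 3 against 3 libraries allow, so this design cannot pass 0.05.

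Split more finely, clusters with 10 to 29, 30 to 99 and 100 or more enriched miR-181 reads stood at -0.11, -0.10 and -0.12 (log2 of the knockout over the wild-type share of miR-142a-3p reads), and clusters with 0 and 1 to 9 at 0.07 and 0.11. Within each of these 5 classes the libraries of the genotypes overlapped. RNA levels were not analysed, so fewer miR-142a-3p reads per molecule and less of the RNA cannot be told apart.

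**Figure D4:**
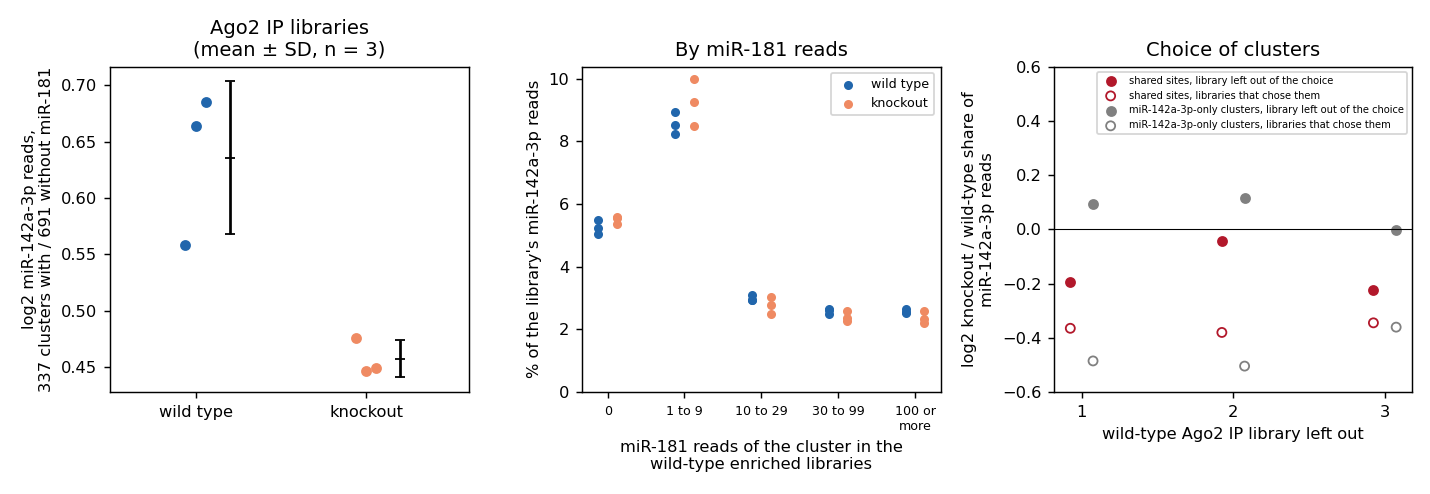
Left, log2 ratio of miR-142a-3p reads at 337 clusters with miR-181 to those at 691 without, per Ago2 IP library, with mean and SD (n = 3). The axis does not start at 0. Middle, percentage of the miR-142a-3p reads of each library by the enriched miR-181 reads of the cluster. Right, log2 ratio of the knockout mean share to the wild-type share, filled for the library left out of the choice and open for the mean of those that chose the clusters. The 3 knockout values at left lie below the 3 wild-type ones, and open points lie below filled ones throughout.

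Single clusters were tested with edgeR's quasi-likelihood test on miR-142a-3p counts, with Benjamini-Hochberg adjustment over all 188 clusters that passed the filter on low counts. Of these, 3 were called at an adjusted p of at most 0.05 (1.6%), 2 of them lower in the knockout (1.06%), and 22 had an unadjusted p under 0.05. The filter was passed by 70 clusters that hold 79 of the shared sites, and 194 sites were not tested. Among the 70, 1 was called, and 12 had an unadjusted p under 0.05. Their median log2 fold change (knockout over wild type) was -0.04, against 0.05 over all clusters tested. Libraries of the genotypes did not overlap, with the knockout lower, at 10 of the 70, or 14.3%, where all tested clusters gave 10.1%, and with the knockout higher at 5, or 7.14%, where all gave 6.38%. The share called, 1.43% of the 70, is thus near the 1.6% of all tested clusters, which include the 70. Wild-type reads chose the shared sites, which favours lower values in the knockout.

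The cluster called was the one in Klf3. Its miR-142a-3p reads were 41, 23 and 19 in wild type and 6, 6 and 11 in the knockout. Per 1000000 miR-142a-3p reads of the library these were 1350 ± 234 and 339 ± 183 (SD, n = 3), without overlap. The log2 fold change was -1.97 (SE 0.37), with an adjusted p of 0.000482 by edgeR. Many of these reads repeat a position: counted once per library and position they were 18, 14 and 10 against 6, 4 and 9, and the change was then -1.18 with an adjusted p of 0.133, which does not pass. It also did not pass without the filter on low counts (adjusted p = 0.562). It passed under 12 of 14 alternatives, and the adjusted p ran from 9.9e-07 to 0.562 over all of them, DESeq2 included. Its wild-type reads also helped to choose the site, which needed 3. The miR-181 reads of the site fell to 1, 0 and 0 in the knockout, from 18, 5 and 10.

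A further 2 shared sites just missed the threshold, both lower in the knockout. Tm9sf2, which encodes a membrane protein of the secretory pathway, had 14, 6 and 8 reads against 5, 1 and 2 (log2 fold change -1.90, SE 0.55, edgeR adjusted p = 0.05004). Usp7, a deubiquitinase gene, had 23, 14 and 9 against 6, 9 and 4 (log2 fold change -1.39, SE 0.41, edgeR adjusted p = 0.05004). At neither site did the genotypes overlap. Whether they passed depended on the setting: the adjusted p was 0.503 for either by DESeq2 and 0.133 with identical lines counted once, and they passed under 3 of 12 alternatives for Tm9sf2 and 4 of 14 for Usp7. Tle5 gave 14, 5 and 3 against 2, 2 and 4 in the joined cluster, a log2 fold change of -1.51 (SE 0.61) with an edgeR adjusted p of 0.259. Its genotypes did not overlap per library size either.

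Gpx1, which encodes a glutathione peroxidase, had the opposite sign, with 15, 8 and 4 reads in wild type and 18, 22 and 18 in the knockout, which did not overlap per 1000000 reads (log2 fold change 0.98, SE 0.37, adjusted p = 0.249 by edgeR). Its joined cluster was narrow (chr9:108339155-108339159, plus strand) and was not among those tested with identical lines counted once. Ly6e also had a positive value, 1.12 (SE 0.45), but its libraries overlapped (edgeR adjusted p = 0.259). Cdkn1b and Rag1, the nuclear genes with the most miR-142a-3p reads at a shared site, did not pass. Cdkn1b had 91, 47 and 38 reads against 88, 64 and 53, with overlap (0.08 on the log2 scale, SE 0.20, adjusted p = 0.930 by edgeR). Rag1, in a joined cluster that holds 2 shared sites, had 104, 66 and 43 against 75, 67 and 45 (-0.34, SE 0.19, adjusted p = 0.488 by edgeR). Its genotypes did not overlap per 1000000 reads, with the knockout lower. At Cdkn1b the sign turned under 4 of 14 alternatives, and with all chimeric reads as library size it was called higher (0.57, adjusted p = 0.0486 by edgeR). In that setting the median over all 172 clusters tested was 0.56, and 22 of the 25 clusters called were higher. The value of Cdkn1b there was thus near that of the typical cluster.

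**Figure D5:**
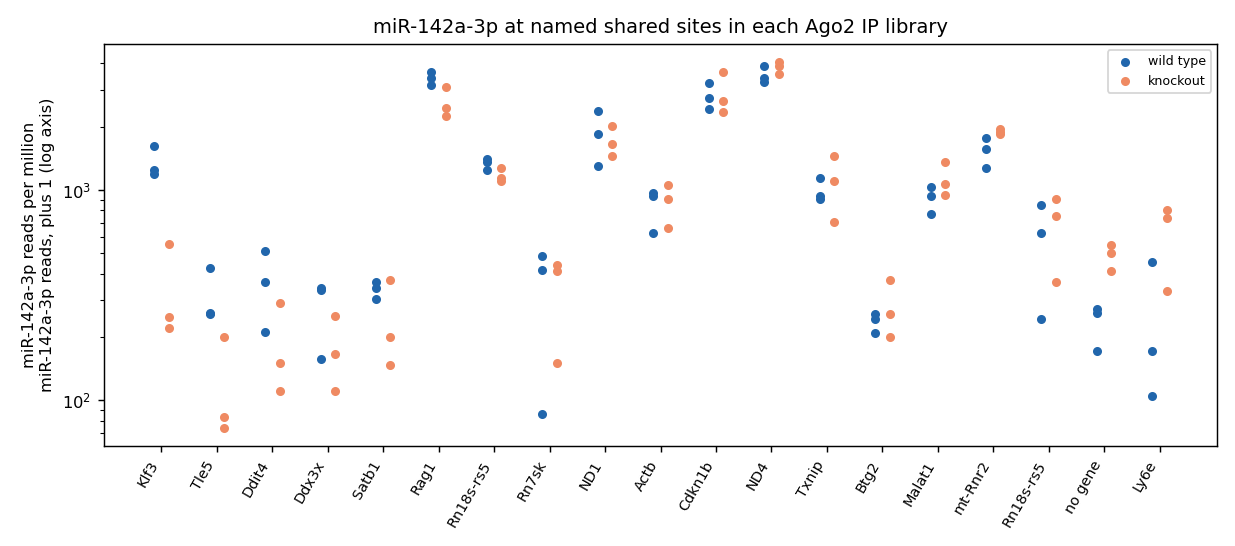
Reads of miR-142a-3p per 1000000 such reads of the library, plus 1, on a logarithmic axis, in 3 wild-type (blue) and 3 knockout (orange) Ago2 IP libraries. Shown are those of the 22 sites picked by read count, miR-181 share, call or distance that were tested, ordered by log2 fold change. Tm9sf2, Usp7, Gpx1 and sites named only from the gene lists are not drawn. Klf3 is furthest to the left, and at most other sites drawn the colours overlap.

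Among the named sites that were not tested, Cd4 had 0, 0 and 2 miR-142a-3p reads in the knockout, Gnai2 0 in all 3 libraries and Mbnl1 0, 0 and 1. Their wild-type counts were 6, 4 and 3 in all, so no change could be detected at this depth. For Gnai2, 0 reads in a knockout library allow up to 3 reads, or between 0.0110% and 0.0150% of its miR-142a-3p reads.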

How the data were processed

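Chimeric reads of miR-eCLIP were analysed in 12 libraries of 4 groups of 3. Input samples, 6 in number, were left out. The deposited files hold a count of 1 read per line, at a position 1 nt wide with its miRNA and strand, and no value was scaled or pooled by the authors. The submitters' processing notes name mm10 and GRCm38.p6, Bowtie2 2.4.5, SAMtools 1.11, STAR 2.7.10, UMI-tools 1.1.1 and bedtools 2.30.0, with no order or settings. Lines repeating position, strand and miRNA made up 3.24% to 34.1% of a library and were kept, with counting them once as an alternative.

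Libraries held 6832 to 293149 reads. Floors of 3 reads cover counting error only. Clusters, hairpins (1225 spans) and gene names came from Python 3.11.15 with pandas 2.3.3 and the RefSeq gene table of GRCm38.p6. miR-142a-3p counts were compared between genotypes with edgeR 4.0.16 in R 4.3.3 (quasi-likelihood test with genotype alone in the model; TMM; low counts removed by filterByExpr, minimum 5), and DESeq2 1.42.0 was an alternative. The fit was tested on simulated data. Ratios of read sums were compared by exact permutation.

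The sites and gene lists were chosen with earlier results of these data known. Named sites are the 15 with the most reads of the rarer miRNA, the 3 with the highest and the 3 with the lowest miR-181 share among those with 30 or more reads, sites called in the knockout, those with the largest and the smallest distance in the other libraries, and those in the gene lists. Tm9sf2, Usp7 and Gpx1 were named after their values were seen. Other alternatives were joining distance, read minimum, library size, filters and leaving out each library. The erythroid markers are not reported here.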

Additional observations from a re-analysis of the deposited data

How the results depend on the processing

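The number of shared sites, 273, followed the rule: it was 171 with 10-nt joining, 446 with 50-nt joining, 118 with 5 reads of each miRNA (10 for clusters of one alone), 259 with identical lines counted once, and 90 to 193 when a wild-type library was left out. Clusters of miR-181 alone numbered 231 with the stricter minimum and 235 to 413 without a library, and those of miR-142a-3p alone 137 and 108 to 289. The drops without a library and with the stricter minimum follow by construction, from a smaller read total and a higher requirement. The median distance stayed between 17 and 21 nt under the 5 alternatives that kept the joining distance, and was 10.5 nt with 10-nt and 36.2 nt with 50-nt joining, both added after seeing the data. The number of clusters called for miR-142a-3p, 3 of 188, was 25 with all chimeric reads as library size (22 higher, with the median of all clusters at 0.56 on the log2 scale), 0 of 12585 without a filter (270 at an unadjusted p under 0.05), 1 of 141 with identical lines counted once (15 at an unadjusted p under 0.05) and 2 with DESeq2. It ran from 1 (without wild-type replicate 1) to 7 (without wild-type replicate 2) with 1 library left out. Among clusters with shared sites, 1 was called in the main setting, 2 with miR-142a-3p library sizes and no TMM, 12 with all chimeric reads, 2 with a minimum count of 10, 0 without a filter (30 at an unadjusted p under 0.05), 0 with identical lines counted once (10 at an unadjusted p under 0.05), 2 with clusters joined over wild-type libraries and 1 to 3 with 1 library left out. Reads of miR-142a-3p were 28.1%, 27.9% and 26.7% of all chimeric Ago2 IP reads in wild type and 39.9%, 40.4% and 38.4% in the knockout. The cause of the changes in the numbers called was not tested. At Rag1 the log2 fold change turned to 0.15 with all chimeric reads as library size, and at Cdkn1b it rose to 0.57 there (adjusted p = 0.0486 by edgeR). At Cdkn1b it ran from -0.090 (without knockout replicate 1) to 0.19 (without knockout replicate 2) with 1 library left out, was -0.035 without wild-type replicate 2, and turned to -0.025 with identical lines counted once and -0.11 with clusters joined over wild-type libraries. The genotype difference of -0.18 between clusters with and without miR-181 kept its sign under all 13 alternatives, from -0.13 (5 or more enriched reads) to -0.23 (without mitochondrial and ribosomal clusters, added after seeing the data). With the median over clusters it was -0.14 with an exact permutation p of 0.6.

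Replicate numbers are shared by the groups. Deviations of same-numbered libraries from their group means correlated at -0.11, 0.04 and 0.00, which shows no pairing. At these low counts the check cannot exclude that same-numbered libraries shared mice or batches. With the replicate block, edgeR called 5 clusters and 3 with shared sites, and the difference between clusters with and without miR-181 was -0.18 with an exact permutation p of 0.25, the smallest that 3 pairs allow.

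Depth limits single sites: 99 of the 273 rest on 3 reads of the rarer miRNA, and 194 had too few miR-142a-3p reads for the test between genotypes.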
